A study of Rattus norvegicus with 6 samples.

Results

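The genes of glucose breakdown, lactate handling and the TCA cycle were examined in the brain of SPORTS rats. They are 39 genes chosen by name for their place in these pathways, out of 15168 genes with a symbol on the array. All 39 were found, with 47 probes among 30367. The study compared 3 SPORTS rats, a mutant line that runs a great deal of its own accord, with 3 wild type rats. All 6 rats were male, of Wistar background, 15 weeks old and sedentary. Each gave total RNA from brain to 1 single-colour array. No brain region and no mutated gene are named in the labels.

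In brain, glucose enters through transporters of the GLUT family and is split in the cytosol to pyruvate. Pyruvate either becomes lactate, which monocarboxylate transporters carry between endothelium, glia and neurons, or enters mitochondria, where pyruvate dehydrogenase and the TCA cycle burn it. Neurons and astrocytes use different forms of several of these proteins, so the tissue holds more than 1 gene for many steps.

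Signals below are log2 values set so that 0 falls at the 75th percentile of each array. A difference is the SPORTS mean less the wild type mean, and values by array follow replicates 1, 2 and 3. Between 20323 and 23261 probes per array were well above background. A probe counted as higher or lower at an adjusted p below 0.05 in limma, adjusted over 20658 tested probes. Wild type replicates 1 and 2 lay in row 1 of the slide and the other 4 arrays in row 2, so each result was also fitted with the row as a block, which rests on 1 wild type array. Of the members, 45 probes for 38 genes were well above background on all 6 arrays. Pdk4, a starvation-induced pyruvate dehydrogenase kinase gene, was well above background on none of the 6 arrays, and the same held for 1 of the 2 probes of Pfkfb3.

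Most of the pathway differed little between the lines, and the largest differences lay in lactate handling and the TCA cycle. The lactate transporter gene Slc16a1 and the TCA cycle genes Fh and Suclg1 were higher in SPORTS. The lactate transporter gene Slc16a7, the lactate dehydrogenase gene Ldha, the isocitrate dehydrogenase gene Idh1, the aldolase gene Aldoa and 1 probe of the phosphofructokinase gene Pfkl were lower. In all, 3 member probes rose and 5 fell, 8 of 45, while 21.1% of all tested probes passed (11.1% higher and 10.1% lower). By genes, each represented by its brightest tested probe, 3 of 38 rose and 4 fell, where 24.3% of all tested genes passed. An unadjusted p below 0.05 in limma was reached by 17 of 45 member probes and by 7154 of all 20658 tested probes. By genes these counts were 16 of 38 and 4332 of 11033, and the unadjusted counts given by step below are to be read beside them. Other settings placed the members differently against the array. With arrays aligned on their median in place of the 75th percentile, 3 of 45 member probes rose and 10 fell, where 22.3% of all tested probes passed and 12.8% fell. With the percentile taken over averaged probes 3 rose and 9 fell, where 22.1% passed and 11.7% fell. With a trended, robust variance 3 rose and 10 fell, where 24.9% passed and 12% fell. The count of lower member probes was 3 without wild type replicate 2, 1 without SPORTS replicate 1 or 3, and 0 without wild type replicate 3 or SPORTS replicate 2 (8 and 9 at an unadjusted p below 0.05 in limma), while 2 or 3 rose each time. Lower calls over all tested probes dropped as well, from 2081 to 1303 without wild type replicate 3 and 1001 without SPORTS replicate 2. They numbered at most 1558 without any 1 array. With the slide row as a block only Slc16a1 passed, 1 of 45 probes, where 7.73% of all tested probes and 8.34% of all tested genes passed.

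**Figure D1:**
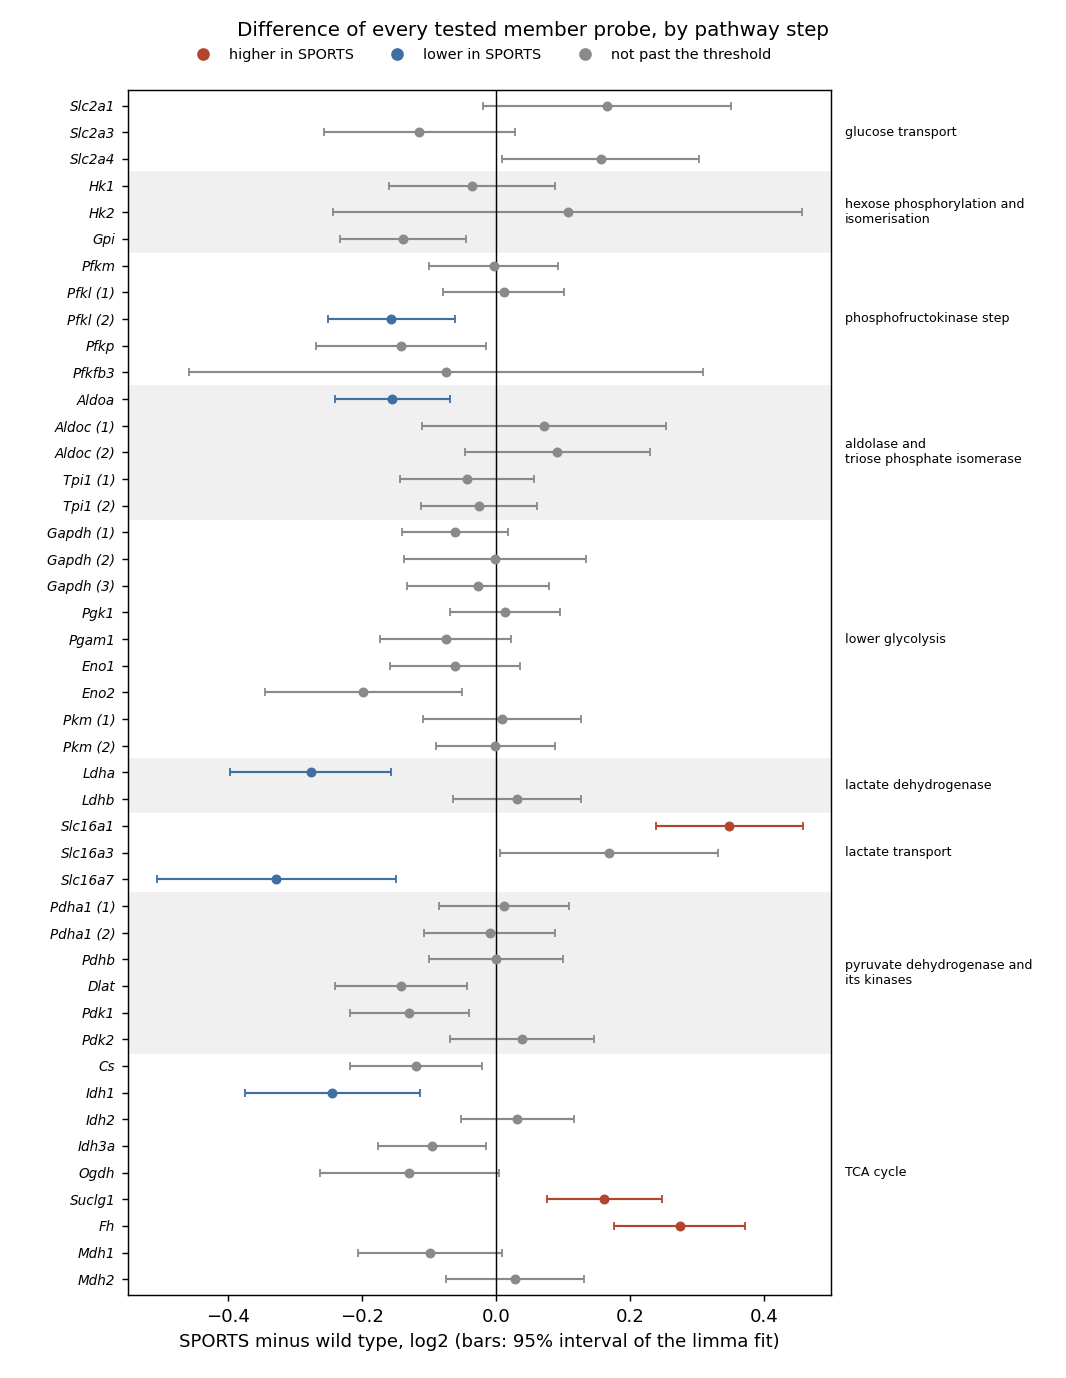
SPORTS minus wild type difference on the log2 scale (horizontal axis) of the 45 tested member probes, grouped by pathway step from glucose transport at the top to the TCA cycle at the bottom. Points are the limma estimates and bars their 95% intervals; numbers in brackets tell probes of 1 gene apart. All points lie between -0.33 and 0.35, and most intervals include 0.

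The sizes were modest. The median absolute difference was 0.09 over the member probes and 0.11 over all tested probes. The largest of a member was 0.35, and 13.7% of all tested probes exceeded it. For 35 of the 45 member probes the 95% interval lay inside 1.25-fold in either direction. Among the 37 that did not pass, 5 had an interval reaching beyond 1.25-fold, and their bounds ran from -0.46 to 0.46. The groups did not overlap for 20 of 45 member probes, while this held for 41.9% of all tested probes.

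**Figure D2:**
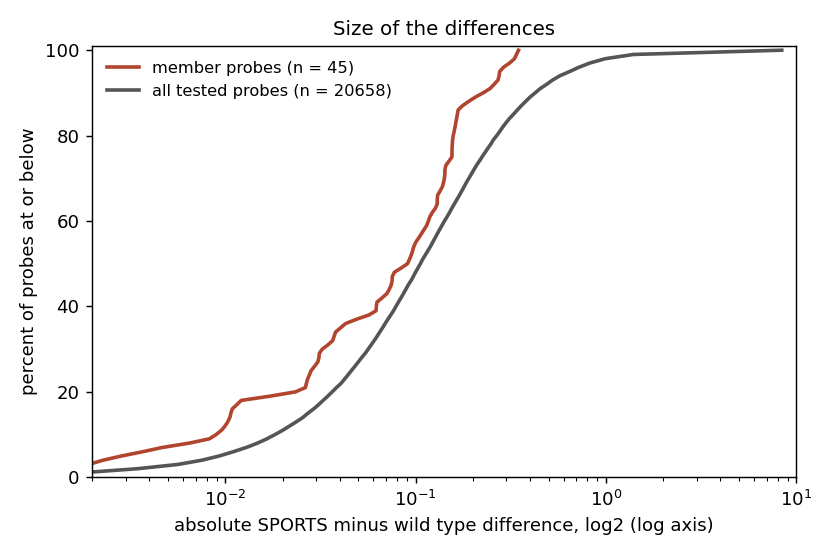
Percent of probes (vertical axis) whose absolute SPORTS minus wild type difference, on a logarithmic axis of log2 units, lies at or below a given size, for the 45 member probes and all 20658 tested probes. The member curve ends at 0.35, where 13.7% of all tested probes are still to come.

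No glucose transporter gene passed, and 1 of the 3 had an unadjusted p below 0.05 in limma, as did 4332 of all 11033 tested genes. Slc2a1 encodes the transporter of the blood-brain barrier and glia, and its signal was 1.96 to 2.11 in SPORTS, against 1.73 to 1.97 in wild type. The groups overlapped, and the difference of 0.16 ± 0.08 (SE) did not pass (adjusted p = 0.185). Slc2a3, which encodes the main neuronal glucose transporter, differed by -0.11 ± 0.06. For Slc2a4, the insulin-responsive transporter gene, the difference was 0.16 ± 0.06, and its 3 SPORTS values of -3.86 to -4.07 lay above the wild type values of -4.14 to -4.15.

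At the entry of glycolysis, the hexokinase genes Hk1 and Hk2 and the isomerase gene Gpi did not pass, and 1 of these 3 had an unadjusted p below 0.05. Hk1, the main brain hexokinase gene, differed by -0.04 ± 0.05 (SE), with a 95% interval of -0.16 to 0.09. Hk2 was dim and its interval wide, from -0.24 to 0.46. Gpi had signals of 3.75, 3.71 and 3.69 in SPORTS, against 3.88, 3.88 and 3.81 in wild type. These groups did not overlap, but the difference of -0.14 ± 0.04 narrowly missed the threshold (adjusted p = 0.0525). It passed in 4 of 17 alternatives, among them the alignment on the array median, and its adjusted p ran from 0.0141 to 0.361.

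Phosphofructokinase commits sugar to glycolysis, and its subunits come from Pfkm, Pfkl and Pfkp. The brighter probe of Pfkl differed by 0.01 ± 0.04 (SE) and the dimmer by -0.16 ± 0.04, so that the 2 probes disagree. The dimmer probe read -2.07, -2.13 and -2.12 in SPORTS, against -1.99, -1.91 and -1.95 in wild type. All SPORTS arrays were below all wild type arrays on it (adjusted p = 0.0382), but this call was lost without any 1 of the 6 arrays, with normexp background correction, without the filter on dim probes and with the row block (adjusted p = 0.191, range over alternatives 0.0177 to 0.194). Pfkm, the muscle-type subunit gene that brain also uses, differed by -0.0044 ± 0.04. Pfkp, the platelet-type subunit gene, differed by -0.14 ± 0.05 (adjusted p = 0.109). It passed under 2 alternatives, and its adjusted p ran from 0.0399 to 0.244. Pfkfb3, whose product makes the allosteric activator of phosphofructokinase, differed by -0.08 ± 0.16, and its sign changed with the row block to 0.24.

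Aldolase splits the phosphorylated hexose. Aldoa read 4.38, 4.36 and 4.37 in SPORTS, against 4.48, 4.54 and 4.55 in wild type. The groups did not overlap, and Aldoa fell by 0.16 ± 0.03 (SE), 1.11-fold (adjusted p = 0.0292). The call was kept without wild type replicate 1 but was lost without any other array, without the filter on dim probes and with the row block (adjusted p = 0.117, range over alternatives 0.00556 to 0.133). Aldoc, the aldolase gene of astrocytes and Purkinje cells, did not pass on either of its probes, at 0.09 ± 0.06 and 0.07 ± 0.07. Tpi1, the triose phosphate isomerase gene, also had 2 probes, at -0.03 ± 0.03 and -0.04 ± 0.04.

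From triose phosphate to pyruvate, no gene passed on any of 9 probes, and 1 of them had an unadjusted p below 0.05 in limma. The 3 probes of Gapdh, often used as a reference gene, differed by -0.06 ± 0.03, -0.0025 ± 0.06 and -0.03 ± 0.04 (SE). Pgk1, a kinase gene of the ATP-forming step, had signals of 5.68, 5.67 and 5.68 in SPORTS, against 5.66, 5.64 and 5.70 in wild type. Its difference of 0.01 ± 0.03 had a 95% interval of -0.07 to 0.09. The 2 probes of the pyruvate kinase gene Pkm differed by 0.0084 ± 0.05 and -0.0016 ± 0.04. The mutase gene Pgam1 differed by -0.08 ± 0.04, and the enolase gene Eno1 by -0.06 ± 0.04. Eno2, the neuronal enolase gene, read 1.71, 1.62 and 1.67 in SPORTS, against 1.76, 1.95 and 1.90 in wild type. These groups did not overlap, yet the difference of -0.20 ± 0.06 missed the threshold (adjusted p = 0.0672). Without wild type replicate 1 it was -0.25 and passed, as it did in 4 other alternatives (adjusted p from 0.0209 to 0.202 over all). Processed pseudogenes are numerous for Gapdh and other glycolytic genes in rodents, and whether these probes also bind their transcripts was not tested.

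Lactate dehydrogenase interconverts pyruvate and lactate, and its subunits come from Ldha and Ldhb. Ldha, whose subunit favours lactate formation, read 4.60, 4.60 and 4.64 in SPORTS, against 4.96, 4.80 and 4.91 in wild type. The 3 SPORTS values lay close together and below every wild type value. Ldha fell by 0.28 ± 0.05 (SE, 95% interval -0.40 to -0.16), which is 1.21-fold (adjusted p = 0.0134). The call was lost without wild type replicate 3 or SPORTS replicate 2, and with the row block, where the difference was -0.30 (adjusted p = 0.0855, range over alternatives 0.00137 to 0.0855). Ldhb, whose subunit favours lactate use, read 4.84, 4.86 and 4.88 in SPORTS, against 4.78, 4.86 and 4.85 in wild type. Here the groups overlapped and the difference was 0.03 ± 0.04 (95% interval -0.06 to 0.13).

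The 3 lactate transporter genes held both the largest rise and the largest fall of the member probes. Slc16a1 encodes MCT1, the transporter of brain endothelium, astrocytes and oligodendrocytes. It read -1.77, -1.80 and -1.73 in SPORTS, against -2.05, -2.17 and -2.13 in wild type. Every SPORTS array was above every wild type array. Slc16a1 rose by 0.35 ± 0.04 (SE), 1.27-fold with a 95% interval of 1.18 to 1.37 (adjusted p = 0.00494). It was the member that passed with the row block as well, at 0.36 (adjusted p = 0.0472), and it passed without any 1 array. With the arrays of slide row 2 alone it did not (adjusted p = 0.0558, range over alternatives 0.00143 to 0.0558).

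Slc16a7 encodes MCT2, the high-affinity transporter of neurons, and moved the other way. It read -3.13, -3.05 and -3.06 in SPORTS, against -2.60, -2.85 and -2.81 in wild type. The SPORTS arrays were again on 1 side of all wild type arrays, of which replicate 1 stood highest. Slc16a7 fell by 0.33 ± 0.07 (SE), 1.26-fold (adjusted p = 0.0271). Its call was lost without wild type replicate 3 or any 1 SPORTS array, with the row block (difference -0.27, adjusted p = 0.200), with normexp and without the filter on dim probes. Over all alternatives the difference ran from -0.38 to -0.21 (adjusted p from 0.0148 to 0.200). Slc16a3, which encodes the lactate exporter MCT4 of astrocytes, read -2.29, -2.37 and -2.43 in SPORTS, against -2.61, -2.42 and -2.56 in wild type. SPORTS replicate 3 lay below wild type replicate 2, and the difference of 0.17 ± 0.07 did not pass (adjusted p = 0.136).

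The gap between 2 probes within an array is free of any single shift applied to that array, such as the 75th percentile or the median. Its size says nothing of relative abundance, since probes bind unequally, but its change between groups can be read. These pairs were chosen with the values known, so the changes are descriptions. The gap of Slc16a1 over Slc16a7 was 1.36, 1.25 and 1.33 in SPORTS, against 0.55, 0.68 and 0.68 in wild type, a shift of 0.68 or 1.60-fold. The shift was 0.63 against wild type replicate 3 alone, the wild type array of slide row 2. The gap of Ldhb over Ldha was 0.24, 0.26 and 0.24 in SPORTS, against -0.18, 0.06 and -0.06 in wild type, a shift of 0.31.

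**Figure D3:**
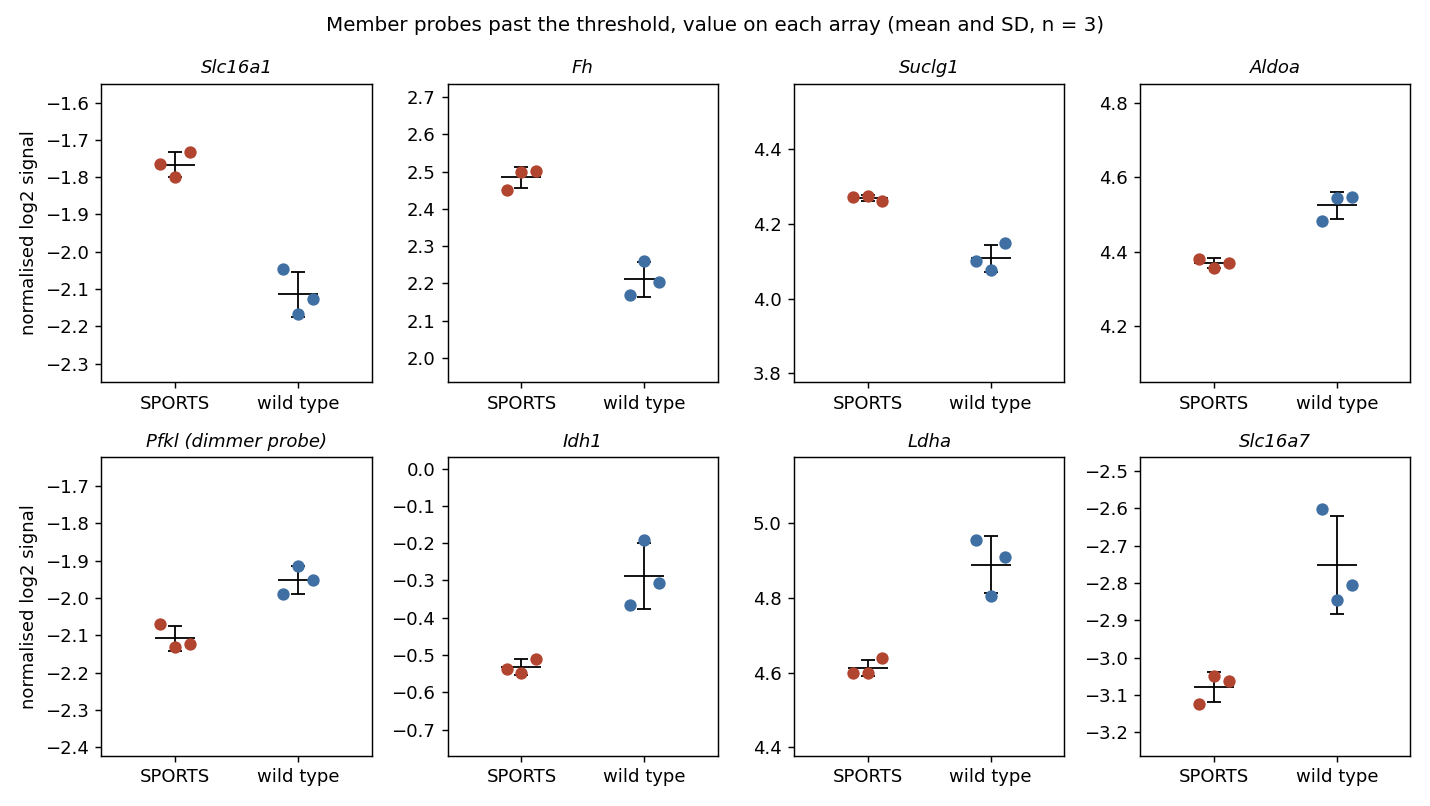
Normalised log2 signal (vertical axes, each spanning 0.8 log2 units) of the 8 member probes past the threshold, on each SPORTS array (left) and wild type array (right). Points are arrays, and bars give mean and SD (n = 3). Slc16a1, Fh and Suclg1 are higher in SPORTS, the other 5 are lower, and no panel has overlapping groups.

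The promoters of these lactate genes are shown because Ldha is a known target of hypoxia-inducible factors and Myc, and because Slc16a1 and Slc16a7 moved apart. Each window runs from 250 bases before to 50 after the annotated start, in RefSeq's GRCr8 assembly, on the gene's own strand. Capitals mark ACGTG, 1 form of the core letters that hypoxia-inducible factors recognise, and other forms were not searched. The letters were read on either strand, as ACGTG or CACGT. Where these overlap they form CACGTG, the E-box read by Myc. The windows lie at chr1:106507842-106508141 on the plus strand for Ldha, chr2:194812410-194812709 on the plus strand for Slc16a1, and chr7:63040349-63040648 on the minus strand for Slc16a7.
Ldha: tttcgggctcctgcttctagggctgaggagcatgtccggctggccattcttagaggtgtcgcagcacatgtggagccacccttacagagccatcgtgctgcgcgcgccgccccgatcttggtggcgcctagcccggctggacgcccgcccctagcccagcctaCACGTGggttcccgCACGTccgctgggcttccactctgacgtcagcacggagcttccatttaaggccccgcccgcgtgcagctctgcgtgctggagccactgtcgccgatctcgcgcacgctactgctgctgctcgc
Slc16a1: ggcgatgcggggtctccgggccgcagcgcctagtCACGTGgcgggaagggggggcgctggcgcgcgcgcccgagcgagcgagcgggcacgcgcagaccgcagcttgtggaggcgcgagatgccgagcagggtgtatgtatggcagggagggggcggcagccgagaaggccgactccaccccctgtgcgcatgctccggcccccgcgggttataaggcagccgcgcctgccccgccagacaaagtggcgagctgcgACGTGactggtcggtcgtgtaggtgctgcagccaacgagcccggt
Slc16a7: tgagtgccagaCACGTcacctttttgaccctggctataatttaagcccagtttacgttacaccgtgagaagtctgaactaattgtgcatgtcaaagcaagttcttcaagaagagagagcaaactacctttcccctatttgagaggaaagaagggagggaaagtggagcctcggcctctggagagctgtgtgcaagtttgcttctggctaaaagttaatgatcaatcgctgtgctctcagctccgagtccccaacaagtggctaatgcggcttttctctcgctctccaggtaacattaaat
Ldha and Slc16a1 each hold a CACGTG and a further match, and Slc16a7 holds 1 CACGT far from its start. Of 39 promoter windows for 35 members, 51.3% held ACGTG on either strand, while 19.3% of all 33469 windows and 19.8% of those of protein-coding genes did. Windows for Slc2a3, Slc2a4, Pgk1 and Idh3a were not used here. A match is a run of letters and not a binding site, and these shares take no account of the base composition of the windows. Among the windows of members with a probe past the threshold, 5 of 10 held the motif. The Hif1a transcript, named here after its values were seen, differed by -0.0027 ± 0.07 (SE, adjusted p = 0.983 in limma). Its probe was dim, with means of -3.98 in SPORTS and -3.97 in wild type. The activity of hypoxia-inducible factors was not measured.

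Pyruvate dehydrogenase links glycolysis to the TCA cycle, and its kinases switch it off. None of the 5 tested genes passed on 6 probes, 2 of which had an unadjusted p below 0.05 in limma. The subunit genes Pdha1 and Pdhb differed by 0.01 ± 0.04, -0.0098 ± 0.04 and -0.0012 ± 0.04 (SE), the first 2 values being the 2 probes of Pdha1. Dlat, the gene of the acetyltransferase core, read -0.41, -0.45 and -0.39 in SPORTS, against -0.27, -0.32 and -0.23 in wild type. Pdk1, a kinase gene induced by hypoxia, read -1.74, -1.78 and -1.74 in SPORTS, against -1.66, -1.64 and -1.59 in wild type. Neither gene had overlapping groups, and both narrowly missed the threshold, Dlat at -0.14 ± 0.04 (adjusted p = 0.0567) and Pdk1 at -0.13 ± 0.04 (adjusted p = 0.0546). With arrays aligned on their median both passed, and over all alternatives the adjusted p ran from 0.0192 to 0.178 for Dlat and from 0.0167 to 0.175 for Pdk1. Pdk2, a kinase gene expressed in many tissues, differed by 0.04 ± 0.04.

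The list of TCA cycle genes also holds Idh1 and Mdh1, whose enzymes are cytosolic. Of its 9 genes 2 rose and 1, Idh1, fell, where 12.9% of all tested genes rose and 11.4% fell. No gene of a mitochondrial enzyme fell past the threshold, though Cs did under 1 alternative. The groups did not overlap for 7 of the 9, while this held for 47% of all tested genes. Fh encodes fumarase, which hydrates fumarate to malate. It read 2.45, 2.50 and 2.50 in SPORTS, against 2.17, 2.26 and 2.20 in wild type. All SPORTS values were above all wild type values, and Fh rose by 0.27 ± 0.04 (SE), 1.21-fold with a 95% interval of 1.13 to 1.29 (adjusted p = 0.00742). It passed without any 1 array, and its difference was 0.28 with the row block, where it did not pass (adjusted p = 0.0637, range over alternatives 0.000638 to 0.0748). Suclg1 encodes the shared subunit of succinyl-CoA ligase, and read 4.27, 4.28 and 4.26 in SPORTS, against 4.10, 4.08 and 4.15 in wild type. Again the groups did not overlap, and Suclg1 rose by 0.16 ± 0.03, 1.12-fold (adjusted p = 0.0257). Its call was kept without wild type replicate 3 and was lost without any other array, without the filter and with the row block (adjusted p = 0.197, range over alternatives 0.00461 to 0.225).

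Idh1 encodes the cytosolic isocitrate dehydrogenase, which makes NADPH outside the mitochondrial cycle. It read -0.54, -0.55 and -0.51 in SPORTS, against -0.37, -0.19 and -0.31 in wild type. The SPORTS values were tight and all below wild type, and Idh1 fell by 0.24 ± 0.05 (SE), 1.18-fold (adjusted p = 0.0256). The call was lost without wild type replicate 3 or any 1 SPORTS array, without the filter and with the row block (adjusted p = 0.171, range over alternatives 0.00693 to 0.171). Its mitochondrial counterpart Idh2 differed by 0.03 ± 0.03. Idh3a, the catalytic subunit gene of the cycle's NAD-dependent enzyme, differed by -0.10 ± 0.03 (adjusted p = 0.0963).

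Of the remaining genes of the list, Cs, the citrate synthase gene that feeds it, read 1.41, 1.48 and 1.48 in SPORTS, against 1.53, 1.60 and 1.60 in wild type. The groups did not overlap, but the difference of -0.12 ± 0.04 (SE) did not pass (adjusted p = 0.0896). Cs passed with trended and robust variance, and over all alternatives its adjusted p ran from 0.0408 to 0.248. Ogdh, of the oxoglutarate dehydrogenase complex, and Mdh1, the cytosolic malate dehydrogenase gene, differed by -0.13 ± 0.05 and -0.10 ± 0.04 without passing. Mdh2, the mitochondrial malate dehydrogenase gene, differed by 0.03 ± 0.04 (95% interval -0.07 to 0.13).

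**Figure D4:**
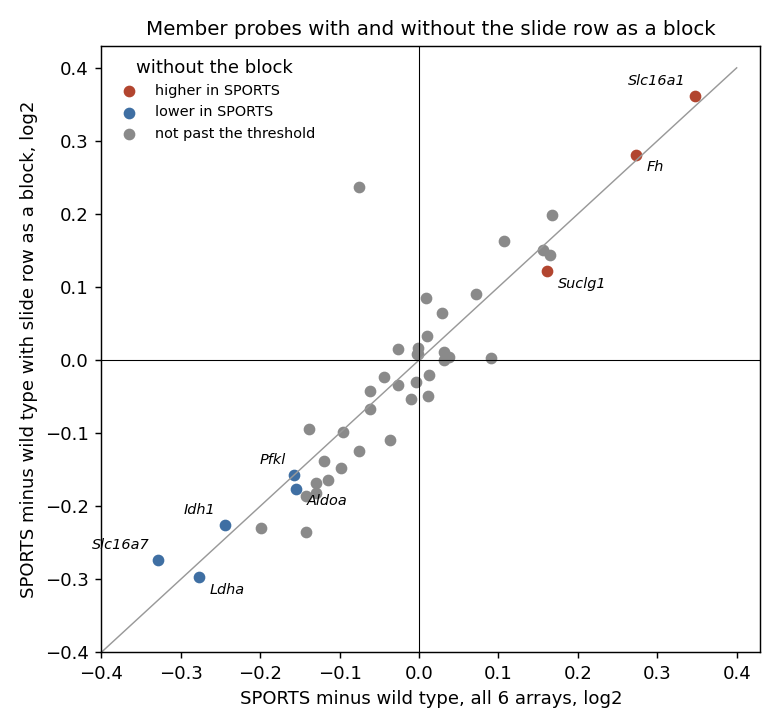
SPORTS minus wild type difference (log2) of the 45 tested member probes, from all 6 arrays (horizontal axis) and after blocking on the slide row (vertical axis); colours give the call without the block and the line marks equal values. The 8 named probes keep their direction, and Pfkfb3, at -0.08 and 0.24, is the point farthest from the line.

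The wider neighbourhood of these pathways was read from a list of 90 further genes of sugar transport, glycolysis, glycogen, the pentose phosphate pathway, shuttles and regulation. Of these, 71 were tested, 10 rose and 3 fell, where 12.9% of all tested genes rose and 11.4% fell. With arrays aligned on their median 8 rose and 6 fell, where 22.3% of all tested probes passed and 12.8% fell. With the row block 4 rose and none fell, where 8.34% of all tested genes passed. The rises numbered 6 without wild type replicate 1 or SPORTS replicate 1 or 2, and the falls 0 without wild type replicate 3 and 1 or 2 without any other array. Calls over all tested probes also dropped when 1 array was left out. Their rises went from 2283 to between 1297 and 1625, and their falls from 2081 to between 1001 and 1558. Slc2a10 and Gpd1, at -0.85 and 0.73, had large differences but did not pass (adjusted p = 0.206 and 0.0871; named after their values were seen). Gyg1, the gene of the protein that primes glycogen, rose by 0.28 ± 0.04 (SE, adjusted p = 0.00530), and its groups did not overlap.

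Emb encodes embigin, an ancillary protein of monocarboxylate transporters. It read -0.81, -0.81 and -0.70 in SPORTS, against -1.13, -1.15 and -1.13 in wild type. No array of 1 group reached the other, and Emb rose by 0.36 ± 0.04 (SE), 1.29-fold (adjusted p = 0.00394), also with the row block (0.35, adjusted p = 0.0466, range over alternatives 0.000515 to 0.0843). Bsg, the gene of the other such partner protein, basigin, was looked at after its values were seen and differed by -0.13 ± 0.05 (adjusted p = 0.103). The phosphatase genes that reactivate pyruvate dehydrogenase moved apart, with Pdp2 at 0.31 ± 0.05 and Pdp1 at -0.35 ± 0.06 (adjusted p = 0.00863 and 0.0154). Neither passed with the row block (adjusted p = 0.0839 and 0.106), and Pdp1 also lost its call without wild type replicate 1 or 3. Over alternatives the adjusted p ran from 0.000978 to 0.132 for Pdp2 and from 0.00213 to 0.128 for Pdp1.

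Txnip, whose product restrains glucose uptake, rose by 0.36 ± 0.06 (SE), and Galm, the gene of an enzyme that interconverts sugar anomers, by 0.27 ± 0.03. Galm also passed with the row block (adjusted p = 0.0493, range over alternatives 0.00127 to 0.0788), as did Gyg1 (adjusted p = 0.0452, range 0.00189 to 0.0710), while Txnip did not (adjusted p = 0.0983, range 0.00153 to 0.103). Gckr, a glucokinase regulator gene, rose by 0.25 ± 0.06 and lost its call without any 1 of wild type replicates 1 and 2 and SPORTS replicates 1 and 2, with quantile normalisation, with trended variance, without the filter on dim probes, with normexp, where the difference was 0.09, and with the row block (adjusted p = 0.266, range 0.0292 to 0.294). Of the 11 further TCA cycle genes none passed in limma (1 with an unadjusted p below 0.05), with differences from -0.07 to 0.20. The 6 pentose phosphate genes also gave no call (0 with an unadjusted p below 0.05), with differences from 0.03 to 0.07.

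**Figure D5:**
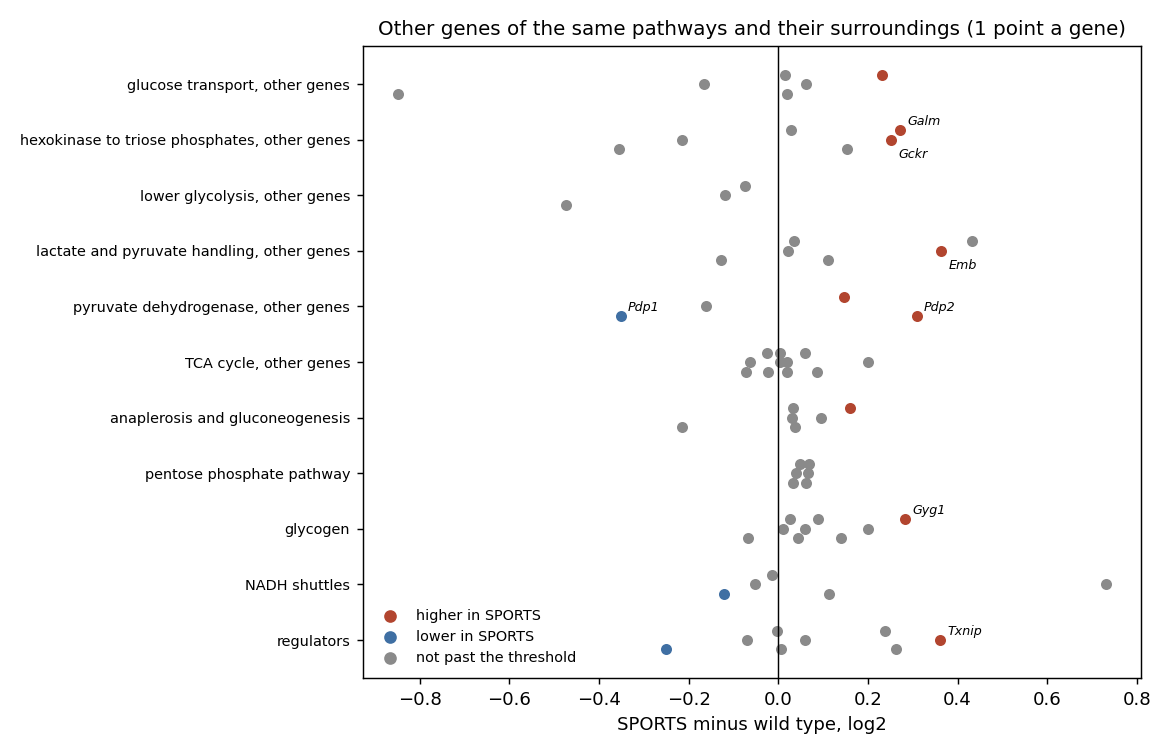
SPORTS minus wild type difference (log2, horizontal axis) of the tested further genes described here, 1 point a gene, by list; the vertical spread within a list has no meaning. The 7 labelled genes are those past the threshold that the text names, and Emb and Txnip, both at 0.36, lie farthest right among the coloured points.

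In bulk tissue, fewer cells of a type, less RNA per cell and another share of brain regions cannot be told apart. The labels name no region, so markers of cell types and regions are given beside these results. Beside the marker counts below, 12.9% of all tested genes rose and 11.4% fell. Of the listed neuron and astrocyte markers, 7 and 8 were tested, and of 5 skeletal muscle markers 1 was, without passing in limma (unadjusted p below 0.05 for 0 of 1). Of the neuron markers 2 of 7 fell, Tubb3 by 0.24 and Syt1 by 0.19, and with the row block none of 7 passed (adjusted p = 0.129 for Tubb3 and 0.0948 for Syt1). The summed linear signal of the 6 neuron markers other than Eno2, itself a member, was 47.1 to 47.7 in SPORTS, against 49.8 to 51.1 in wild type. Of the astrocyte markers 3 of 8 rose, led by Aqp4 at 0.57 and Aldh1l1 at 0.31, and with the row block none of 8 passed (adjusted p = 0.0539 for Aqp4 and 0.0552 for Aldh1l1). Without the member Aldoc, the other 7 summed to 75.6 to 77.8 in SPORTS, against 64.9 to 68.2 in wild type. Such a sum is weighted towards bright probes. Of the 8 astrocyte markers 6 had differences above 0 and 2 below. The 2 were Slc1a2 at -0.12 and Slc1a3 at -0.0056, neither passing in limma (adjusted p = 0.144 and 0.944; named after their values were seen). Of the oligodendrocyte markers 2 of 6 rose, among them Mog at 0.28, and of the endothelial markers 1 of 6, Pecam1 at 0.26. With the row block neither Mog nor Pecam1 passed (adjusted p = 0.0572 and 0.0602). The endothelial marker Flt1, named after its values were seen, was lower with the block (-1.46, adjusted p = 0.00867). Without the block its groups overlapped and it did not pass (-0.54, adjusted p = 0.383). Flt1 read -3.67, -3.84 and -3.77 in SPORTS, against -3.53, -3.81 and -2.30 in wild type. Its blocked value thus rests on the high wild type replicate 3. Meningeal and fibroblast markers were apart, with 5 of 6 higher, among them Dcn at 1.12, and Ogn lower at -0.92. All 6 striatal markers fell, led by Adora2a at -3.08 and Rgs9 at -2.77, and their sum was 4.65 to 5.46 in SPORTS, against 18.9 to 22.4 in wild type. Of the microglial markers 1 of 6, Tmem119, fell by 0.77. The same counts of meningeal, striatal and microglial markers passed with the row block. No cerebellar, choroid plexus or erythroid marker passed in limma (unadjusted p below 0.05 for 0 of 13). The cerebellar sum was 12.5 in SPORTS replicate 1, against 8.82 and 8.41 in SPORTS replicates 2 and 3 and 7.73 to 9.23 in wild type. The choroid plexus sum was 67.5 in SPORTS replicate 1 and 127 to 144 in the other 5 arrays. The part of these tissue differences in the member genes' results was not tested.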

How the data were processed

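Brain RNA of 6 rats was labelled with Cy3 and read on single-colour Agilent arrays of 1 slide. Per the file headers, the authors' Feature Extraction 10.10.1.1 gave a background-subtracted, detrended processed signal, an intensity, for each spot, along with other 0 or 1 flags. The deposited value table holds the same intensity scaled by 1 factor per array, chosen in a way not given in the sources used here. From these, log2 processed signal minus each array's 75th percentile over non-control spots was taken, without outlier spots, and spots of a probe were averaged. A probe was tested if over 0.5 of its spots passed the well-above-background flag on every array of a group. Groups were compared with limma 3.58.1 in R 4.3.3 (lmFit and eBayes), with Benjamini-Hochberg adjustment over 20658 probes and a threshold of 0.05. The fits were also run on simulated data with independent noise and no effect of the slide row. No result above rests on that run. Genes were named from the probes' transcript identifiers through RefSeq (GRCr8), which matched 18005 of 30367 probes, so probe positions are not given. A gene took its brightest tested probe. No spot was saturated. With 3 rats a group, the limma p-values set a group difference against the spread between these rats, moderated over all tested probes. The number of rats limits precision. Members, marker lists and further genes were chosen with earlier results of these data known. Named genes are all members, with values by array for those past the threshold, up to 8 further genes and up to 2 markers a list that passed with the largest differences, except for 2 genes not reported here. Normalisation, background, filter, outlier spots, variance model, slide row and each array were varied.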

Additional observations from a re-analysis of the deposited data

How the results depend on the processing

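Of 17 alternatives 4 leave the differences of the 8 member probes past the threshold as they are and change at most the test: the deposited value table, both filter settings and the trended variance. In the other 13, 97 fits gave another difference, all in the same direction, and 43 of them lost the call in limma. Of the 39 fits with the same difference 5 lost it. Among the other 37 probes, 19 of 629 fits gained a call and 58 changed sign. Lower member probes numbered 10 with the median shift, 10 with trended and robust variance, 9 with the percentile taken over averaged probes (added after the data were seen), where 12.8%, 12% and 11.7% of all probes fell, and 1 without the filter on dim probes. Lower member genes numbered 9, 9, 8 and 1 in the same settings, and 7 with the mean of a gene's probes. Of further genes 6 fell with the median shift, 7 fell with trended variance, and 6 rose and 0 fell without the filter. Without the filter 1234 of all probes rose and 1108 fell. The slide row as a block gave 1 higher and 0 lower for member probes and genes (10 probes at an unadjusted p below 0.05), 4 and 0 for further genes, and 741 and 856 for all probes. The arrays of row 2 alone gave 0 and 0 for members (11 unadjusted), 1 and 0 for further genes, and 538 and 609 for all probes. Leaving out 1 array gave 2 to 3 higher and 0 to 5 lower members by probe and by gene, 6 to 8 and 0 to 2 further genes, and 1297 to 1625 and 1001 to 1558 of all probes. The cause of these changes was not tested. Both row settings rest on 1 wild type array. Dim probes such as Hk2 and Pfkfb3 had wide intervals. No paired analysis was possible because replicate numbers follow accession order and mark no shared animal or litter.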
